A study of Mus musculus with 25 samples.

Results

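The change that mouse astrocytes undergo between 2 and 14 days in culture was compared, gene by gene, with their change under an EGFR inhibitor. For each gene, the difference between inhibitor and DMSO libraries was set against the difference between day 14 and day 2 libraries, both on log2(RPKM + 1). RPKM counts reads per kilobase of gene and scales them to a fixed library size. Of the 25 libraries of the study, 12 enter the comparison. All came from astrocytes of the cortex of C57BL/6J mice, bound to antibody-coated dishes (immunopanning) through HepaCAM, an astrocyte adhesion protein, and kept in culture. The groups were day 2 in vitro (n = 3), day 14 in vitro (n = 3), cells given DMSO as the control of the EGFR inhibitor (n = 3) and cells to which the EGFR inhibitor was added on day 2 in vitro (n = 3). No source used here gives the age of the mice, the identity and dose of the inhibitor or the day on which treated cells were collected. Day 7 cells (n = 3), HBEGF and HBEGF withdrawal cells (n = 2 each) and P53 inhibitor cells with their own DMSO control (n = 3 each) share the fit. The 2 experiments compared here have no library in common.

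EGFR is a receptor tyrosine kinase that binds EGF, HBEGF and related ligands and signals largely through RAS and ERK. In immature astrocytes this signal drives division, and ERK induces its own brakes, among them the Sprouty proteins and dual-specificity phosphatases. Astrocytes that mature after birth leave the cell cycle and gain water and potassium channels, gap junctions, glutamate and GABA transporters and secreted lipoproteins.

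In the 12 libraries, the reads counted ran from 4326298 to 9693546 with a median of 6188080, and between 9079 and 9865 genes reached an RPKM of 1. The test was limma on log2(RPKM + 1) over 13850 genes, a scale that understates the change of genes with low values. A gene is called changed at an adjusted p below 0.05. Log2 changes are given ± SE. Gene positions are on GRCm38 from GENCODE M21. Where the replicates came from is not stated, so p-values reflect only how libraries spread, and that spread may be technical. The spread is pooled over all 25 libraries of the fit, so libraries outside the comparison also bear on each p-value and SE. In such bulk RNA, fewer cells of a type and less RNA per cell cannot be told apart. Ribosomal RNA of the mitochondrion took 14.5 ± 1.99% of reads on day 2, 21.8 ± 1.91% on day 14, 18.7 ± 0.237% with DMSO and 23.4 ± 1.77% with the inhibitor (SD). It thus moved with both comparisons, and its part in the results below was not tested beyond the rescaled fits given with the counts. Over the 2354 genes averaging 5 RPKM or more, the median change was -0.33 with the inhibitor and -0.20 with days. Scaling by median of ratios moved these medians to -0.18 and -0.02.

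Genes whose level depended on the day were moved by the inhibitor more often in the same direction than in the opposite one. A gene was taken as day-dependent if its day change was called and was at least 1 in log2. Of the 13850 genes 143 rose in this way from day 2 to day 14 (1.03%) and 215 fell (1.55%). Of the 143 rising genes, 78 (54.5%) also rose with the inhibitor and were moved further, 50 (35.0%) were not called and are described as left, and 15 (10.5%) fell and were reversed. Among all tested genes 16.3% were called higher and 22.2% lower with the inhibitor. Of the 215 falling genes, 119 (55.3%) fell with the inhibitor as well, 81 (37.7%) were left and 15 (6.98%) rose. The share moved further was thus above the background in both directions, and the share reversed was below it. The 2 sets differ in level, since the background includes low genes that could hardly reach a change of 1 on this scale. With a filter of 5 RPKM the background was 16.8% higher and 35% lower, and the shares moved further were 59.3% of rising and 69% of falling genes.

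**Figure D1:**
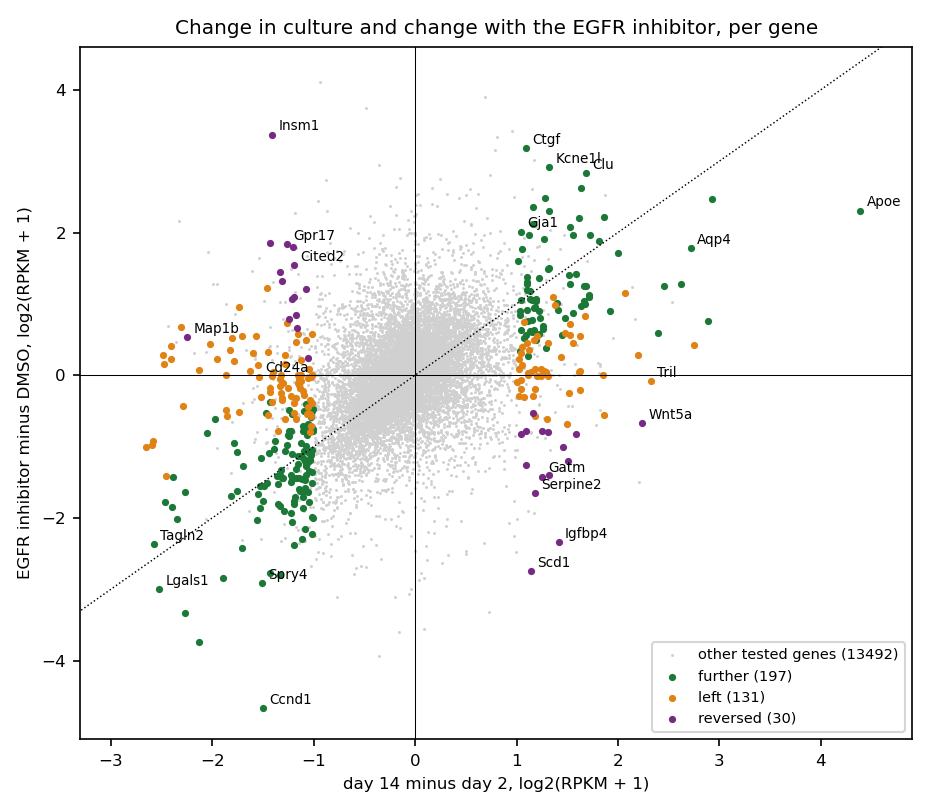
Each point is a tested gene, with its log2(RPKM + 1) change from day 2 to day 14 on the horizontal axis and its change with the EGFR inhibitor on the vertical axis, and the dotted line marks equal changes. Genes moved further fill the upper right and lower left, reversed genes lie in the other corners, and left genes include a few with inhibitor changes above 1 that were not called.

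**Figure D2:**
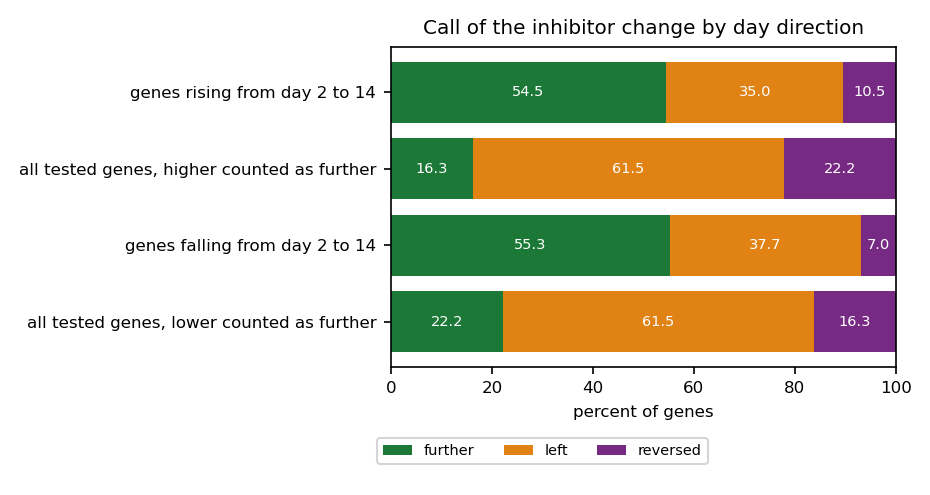
Bars give the percent of genes called in the same direction (further), not called (left) or called in the opposite direction (reversed) with the inhibitor, for the 143 rising and 215 falling genes and for all 13850 tested genes counted in the same direction. The further share is 54.5% against a background of 16.3% for rising genes and 55.3% against 22.2% for falling genes.

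The genes were chosen on the day change and sorted on the inhibitor change, which rest on different libraries. The difference of changes holds the day change itself, so a called difference within a class follows in part from the choosing. Counts of larger, smaller or not told apart changes in a class are thus a description with no test. Without day 14 replicate 1 there were 108 rising genes, 48 of them further (44.4%), and 143 falling genes, 66 of them further (46.2%). Median-of-ratios scaling gave 188 rising genes (110 further, 57 left, 21 reversed) and 111 falling genes (52, 45 and 14). It also turned the day calls over all genes from 769 higher and 2439 lower (24.0% higher) to 1202 and 1140 (51.3%), and the inhibitor calls from 42.4% to 54.7% higher. Leaving out day 14 replicate 1 gave 490 and 1590 day calls, and leaving out day 2 replicate 2 gave 1611 lower.

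By sign alone, 109 of the 143 rising genes (76.2%) and 171 of the 215 falling genes (79.5%) moved the same way with the inhibitor, against 64.2% of all tested genes. Across all 13850 genes the 2 changes were related with Pearson's r = 0.366 and Spearman's rho = 0.403, a description only, since genes within these libraries share depth and scaling and are not independent. The difference of the 2 changes was itself called for 12.9% of genes (7.99% higher and 4.87% lower with the inhibitor than with days).

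Where the treated cells stood between the 2 days was read from the mean log values. On a scale where day 2 is 0 and day 14 is 1, the DMSO cells had a median position of 0.36 over the 78 rising genes moved further, and the inhibitor cells of 1.25. For the 119 falling genes moved further the medians were 0.30 and 1.38. The inhibitor mean was past the day 14 mean for 52 of the 78 and 98 of the 119 genes, and the DMSO mean for 3 and 0. The classes were sorted on the inhibitor change, so a shift of the inhibitor position within a class follows from the sorting. Over all 143 rising genes the medians were 0.39 with DMSO and 0.83 with the inhibitor, whose mean was past day 14 for 57. Over all 215 falling genes they were 0.40 and 1, with the inhibitor mean past day 14 for 111. For the left genes the medians were 0.40 with DMSO and 0.50 with the inhibitor (50 rising genes), and 0.52 and 0.68 (81 falling genes). For the reversed genes the median positions with the inhibitor lay beyond day 2, at -0.35 for the 15 rising and -0.29 for the 15 falling genes. These positions set levels of 1 experiment on a scale from the other, with collection day unknown for the treated cells. In the day series itself, most of the change was in place by day 7, with a median share of 0.69 for rising and 0.76 for falling genes.

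Of the 78 rising genes moved further, 11 were on the list of mature astrocyte genes. Apoe, the main lipid carrier that astrocytes secrete (ENSMUSG00000002985.16, chromosome 7, 19696109 to 19699188), stood at 29.3, 13.3 and 15.3 RPKM on day 2 and 622, 448 and 232 on day 14. It stood at 87.2, 116 and 113 RPKM with DMSO and 537, 520.2 and 504 with the inhibitor. Neither pair of groups overlapped, and the inhibitor libraries lay within the range of day 14. The log2 change was 4.39 ± 0.30 (adjusted p = 3.8e-08) with days and 2.31 ± 0.30 (adjusted p = 1.02e-05) with the inhibitor. The inhibitor change was the smaller one, with a difference of -2.08 ± 0.42 (adjusted p = 0.0027), and DMSO cells were already above all day 2 libraries.

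Clu encodes a secreted chaperone lipoprotein. Clu stood at 4.08, 2.62 and 1.75 RPKM on day 2 and at 18.3, 8.06 and 8.69 on day 14. Its values were 2.82, 3.0 and 2.98 RPKM with DMSO and 28.8, 30.2 and 22.6 with the inhibitor. The DMSO libraries lay among those of day 2, and all inhibitor libraries lay above the highest day 14 library. Its changes were 1.69 ± 0.37 (adjusted p = 0.00284) with days and 2.83 ± 0.37 (adjusted p = 1.14e-05) with the inhibitor, a difference of 1.14 ± 0.52 (adjusted p = 0.173) that was not called but was with weighted libraries (0.0334).

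Ndrg2, a gene of astrocyte shape and stress response, changed by 1.86 with days and 2.22 with the inhibitor, and the cysteine protease inhibitor gene Cst3 by 1.81 with days and 1.89 with the inhibitor. Their differences of 0.36 ± 0.46 (adjusted p = 0.675) and 0.08 ± 0.38 (adjusted p = 0.932) were not called. Aqp4, the water channel of astrocyte end feet, rose from 3.72, 1.01 and 1.55 RPKM on day 2 to 28.0, 15 and 13.8 on day 14. With DMSO it was at 6.73, 7.06 and 7.61 and with the inhibitor at 27.4, 25.6 and 27.6 RPKM. The inhibitor thus brought it to the upper end of the day 14 range, and the difference of changes, -0.94 ± 0.38 (adjusted p = 0.116), was not called, but was without day 2 replicate 1 (adjusted p = 0.0137). The membrane protein gene Ttyh1, which encodes a chloride channel family member, changed by 2.00 with days and 1.71 with the inhibitor, a difference of -0.29 ± 0.30 (adjusted p = 0.601). No source used here says whether counting used strand, so a gene named below as overlapping another may share reads with it. The glutamate transporter gene Slc1a2 (1.23 with days and 0.80 with the inhibitor) and the glycolytic enzyme gene Aldoc (1.10 with days and 1.37 with the inhibitor) were also moved further. Aqp4, Ttyh1 and Slc1a2 overlap other genes.

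For 4 rising genes the inhibitor change was larger than the day change, with the difference called. Kcne1l, a potassium channel subunit gene (ENSMUSG00000090122.3, chromosome X, 142304752 to 142306294), stood at 3.34, 3.67 and 4.35 RPKM on day 2 and 14.7, 8.96 and 9.75 on day 14. It was at 5.12, 4.09 and 5.28 RPKM with DMSO and at 51.6, 40.9 and 37.2 with the inhibitor, far above every day 14 library. The difference of the changes was 1.60 ± 0.42 (adjusted p = 0.017). Ctgf, a secreted matrix-associated protein gene, had 3.28, 2.82 and 1.21 RPKM on day 2, 7.02, 4.46 and 7.08 on day 14, 1.76, 0.833 and 0.675 with DMSO and 19.7, 20.7 and 13.3 with the inhibitor. Of its DMSO libraries 2 lay below the day 2 range, and all inhibitor libraries lay above day 14. Its day change of 1.10 ± 0.35 (adjusted p = 0.0303) was lost without day 14 replicate 1 or 3 or day 2 replicate 2 or 3 (adjusted p 0.0515 to 0.14). The difference for Ctgf was 2.09 ± 0.50 (adjusted p = 0.00894). The gap junction gene Gja1 and the pseudokinase gene Nrbp2 had differences of 0.97 ± 0.31 (adjusted p = 0.0475) and 0.99 ± 0.32 (adjusted p = 0.0486). Each was lost without any 1 of 10 libraries (adjusted p 0.0596 to 0.131 and 0.0689 to 0.132), and among the 12 fits it was kept for Gja1 without day 14 replicate 1 or day 2 replicate 3 and for Nrbp2 without day 14 replicate 1 or day 2 replicate 2. In a fit of the 12 compared libraries alone both calls were lost (adjusted p = 0.165 for Gja1 and 0.0859 for Nrbp2). Nrbp2 overlaps another gene.

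The other rising genes moved further included 11 whose inhibitor change was smaller with the difference called and 63 whose 2 changes were not told apart. Of the 78 genes, 19 have predicted, clone, pseudogene or small RNA symbols. Families among them were the metal-binding proteins Mt1 (1.93 with days and 0.90 with the inhibitor) and Mt2 (2.62 with days and 1.27 with the inhibitor), and the protocadherin beta genes Pcdhb13 to Pcdhb17, Pcdhb19, Pcdhb20 and Pcdhb22. Pcdhb17 changed by 1.19 with days and 1.04 with the inhibitor and Pcdhb22 by 1.22 with days and 0.90 with the inhibitor, while Pcdhb18 was left (1.05 with days and 0.40 with the inhibitor). Both families have close copies, so reads may be split among their members. The lysosomal and lipid genes Ctsf (1.27 with days and 1.91 with the inhibitor) and Abca1, a cholesterol exporter (1.71 with days and 1.10 with the inhibitor), were moved further too. Mt2, Pcdhb13, Pcdhb17, Pcdhb19, Pcdhb20, Pcdhb22 and Pcdhb18 overlap other genes. Mt1, Mt2, Pcdhb13, Pcdhb17, Pcdhb19, Pcdhb20, Pcdhb22, Pcdhb18, Ctsf and Abca1 were named after the values were seen.

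Left genes showed that a rise with days did not always come with a rise under the inhibitor. Tril, a Toll-like receptor accessory protein gene of astrocytes (ENSMUSG00000043496.7, chromosome 6, 53815468 to 53820830), is the plainest case. Tril stood at 17.1, 14.8 and 13.9 RPKM on day 2 and at 91.5, 80.6 and 69.9 on day 14. Its values were 32.7, 33.2 and 34.7 RPKM with DMSO and 30.8, 32.2 and 32.0 with the inhibitor. The 6 libraries of the EGFR experiment lay between the 2 days, with the inhibitor libraries just below those with DMSO. The day change was 2.32 ± 0.11 (adjusted p = 6.18e-10). The inhibitor change was -0.08 ± 0.11 (adjusted p = 0.61), with a 95% interval of -0.31 to 0.15, and the difference was -2.40 ± 0.16 (adjusted p = 4.18e-08). Tril overlaps another gene.

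Ptgds, the prostaglandin D synthase gene, stood at 4.02, 3.39 and 3.25 RPKM on day 2 and 14.6, 13.9 and 10.5 on day 14, against 6.35, 7.78 and 9.22 with DMSO and 8.44, 6.59 and 9.14 with the inhibitor. The DMSO and inhibitor libraries overlapped, and the inhibitor change was 0.05 ± 0.25 (adjusted p = 0.917), with an interval of -0.47 to 0.56. Lrrn1, a leucine-rich repeat membrane protein gene, rose by 1.85 ± 0.20 (adjusted p = 5.22e-06) with days, with an inhibitor interval of -0.42 to 0.42. Plekhb1 rose by 1.62 ± 0.13 (adjusted p = 2.4e-07) with days, with an inhibitor change of -0.21 ± 0.13 (adjusted p = 0.223). The differences were -1.57 ± 0.35 (adjusted p = 0.00534) for Ptgds, -1.85 ± 0.28 (adjusted p = 0.000212) for Lrrn1 and -1.84 ± 0.19 (adjusted p = 3.96e-06) for Plekhb1. Acta2, a smooth muscle actin gene, had an inhibitor change of 0.25 ± 0.35 (adjusted p = 0.613) and a difference of -1.19 ± 0.49 (adjusted p = 0.128), so that its 2 changes could not be told apart, though the difference was called without day 14 replicate 1 (0.0494) and with weighted libraries (0.029).

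A missed threshold does not show that the inhibitor had no effect. Of the 50 left rising genes, 31 had a 95% interval of the inhibitor change within -1 to 1, and 24 had a called difference from the day change. The day change chose these genes and is part of that difference, so the 24 are a description only. The potassium channel gene Kcnj10 (1.05 with days and -0.19 with the inhibitor), the adhesion gene Hepacam, whose protein was used for the purification (1.04 with days and 0.31 with the inhibitor), and the sodium pump subunit gene Atp1b2 (1.11 with days and 0.45 with the inhibitor) were among the left genes. So were the GABA-degrading enzyme gene Abat (1.11 with days and 0.03 with the inhibitor) and the copper-binding ferroxidase gene Cp (1.52 with days and -0.25 with the inhibitor). For Cp the inhibitor change was called lower with a pseudocount of 0.1 (-0.79, adjusted p = 0.0124) and with voom (-0.93, adjusted p = 0.0246), which would make it reversed. The median inhibitor change over the 50 genes was 0.07, against 1.11 over the 78 moved further. In the 50, 27 symbols are predicted, clone, pseudogene or small RNA genes. Cp overlaps another gene. Kcnj10, Hepacam and Atp1b2 were named after the values were seen.

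The inhibitor reversed 15 rising genes. Scd1, the desaturase that makes monounsaturated fatty acids (ENSMUSG00000037071.3, chromosome 19, 44394455 to 44407879), rose from 38.3, 29.3 and 45.1 RPKM on day 2 to 81.6, 83.9 and 83.4 on day 14. With DMSO it stood at 59.0, 84.1 and 88.0 RPKM and with the inhibitor at 9.69, 11.8 and 10.0. All inhibitor libraries lay below every day 2 library. The changes were 1.14 ± 0.33 (adjusted p = 0.0163) with days and -2.74 ± 0.33 (adjusted p = 4.59e-06) with the inhibitor, and the day call was lost without day 2 replicate 2 (adjusted p = 0.0811). The difference was -3.89 ± 0.46 (adjusted p = 1.86e-05). The lipogenesis regulator gene Mid1ip1 (1.31 with days and -0.79 with the inhibitor), the lipolysis inhibitor gene G0s2 (1.05 with days and -0.83 with the inhibitor) and Mfsd2a, a transporter of lysophospholipids (1.46 with days and -1.01 with the inhibitor), were reversed as well. Mid1ip1 and G0s2 overlap other genes. Mid1ip1 and G0s2 were named after the values were seen.

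Serpine2 and Igfbp4, which encode secreted proteins, were among the reversed genes. Serpine2, a secreted protease inhibitor gene of glia (ENSMUSG00000026249.10, chromosome 1, 79794197 to 79861180), stood at 9.54, 7.30 and 6.27 RPKM on day 2 and 18.3, 21.7 and 16 on day 14. It was at 10.2, 10.6 and 10.3 with DMSO and 3.05, 2.41 and 2.48 with the inhibitor, below all day 2 libraries. The changes were 1.18 ± 0.16 (adjusted p = 4.95e-05) and -1.65 ± 0.16 (adjusted p = 4.93e-07), and the difference was -2.83 ± 0.22 (adjusted p = 2.84e-07). Igfbp4, a binding protein of insulin-like growth factors, had 6.95, 5.98 and 4.87 RPKM on day 2, 10.4, 24.3 and 20.5 on day 14, 8.11, 7.80 and 8.85 with DMSO and 0.770, 1.17 and 0.606 with the inhibitor. None of these pairs of groups overlapped, and the difference was -3.75 ± 0.44 (adjusted p = 1.49e-05). The Wnt ligand gene Wnt5a (2.24 with days and -0.67 with the inhibitor) and the metalloprotease inhibitor gene Timp4 (1.59 with days and -0.83 with the inhibitor) belonged to the reversed genes too. Wnt5a and Timp4 overlap other genes. Wnt5a and Timp4 were named after the values were seen.

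Gatm, the first enzyme of creatine synthesis, stood at 4.86, 3.09 and 3.20 RPKM on day 2 and 12.3, 10.8 and 7.76 on day 14, against 7.62, 8.41 and 8.64 with DMSO and 2.43, 2.53 and 2.37 with the inhibitor. The DMSO libraries lay close to the day 14 level and the inhibitor libraries under the day 2 level, with a difference of -2.68 ± 0.26 (adjusted p = 2.85e-06). The GABA transporter gene Slc6a11 changed by 1.25 with days and -0.79 with the inhibitor, a difference of -2.04 ± 0.18 (adjusted p = 9.45e-07), and the mitochondrial glutamate carrier gene Slc25a18 by 1.10 with days and -0.78 with the inhibitor. Tlcd1, a membrane lipid gene, had a difference of -2.35 ± 0.39 (adjusted p = 0.000493), and its day call was lost without day 2 replicate 2 (adjusted p = 0.0548). Slc6a11, Slc25a18 and Tlcd1 overlap other genes. Slc25a18 was named after the values were seen.

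Of the 119 falling genes moved further, 2 were on the mitosis list, 5 on the DNA replication list and 5 on the list of ERK feedback and output genes. Lgals1, a galectin gene that is high in immature and reactive glia (ENSMUSG00000068220.6, chromosome 15, 78926725 to 78930465), stood at 89.4, 107 and 47.0 RPKM on day 2 and 10.6, 14.3 and 12.8 on day 14. It was at 37.6, 38.3 and 41.1 RPKM with DMSO and 4.64, 3.12 and 4.40 with the inhibitor. The inhibitor libraries were below every day 14 library. The changes of -2.52 ± 0.25 (adjusted p = 2.59e-06) and -3.0 ± 0.25 (adjusted p = 1.48e-07) differed by -0.47 ± 0.36 (adjusted p = 0.441), which was not called. The actin-binding gene Tagln2 (-2.58 with days and -2.37 with the inhibitor) and the scaffold gene Akap12 (-1.71 with days and -2.43 with the inhibitor) fell with both as well.

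Thbd, the thrombin receptor thrombomodulin, fell from 4.85, 6.96 and 4.10 RPKM on day 2 to 0.241, 0.102 and 0.178 on day 14, and from 3.99, 2.38 and 2.19 with DMSO to 0.0923, 0 and 0.0466 with the inhibitor. The day 14 and inhibitor libraries were all close to 0, where the log2(RPKM + 1) scale understates a fall. Dio2, which activates thyroid hormone and is a mature astrocyte gene, also fell with both (-2.47 with days and -1.77 with the inhibitor). Tubulin genes that fell with both included Tubb6 (-1.89 with days and -2.84 with the inhibitor), Tubb5 (-1.09 with days and -1.06 with the inhibitor), Tuba1b (-1.35 with days and -1.52 with the inhibitor) and Tubb4b (-1.10 with days and -0.50 with the inhibitor). Genes of actin-linked proteins that did so included Msn (-1.12 with days and -1.14 with the inhibitor), Zyx (-1.24 with days and -0.78 with the inhibitor), Fscn1 (-1.06 with days and -0.84 with the inhibitor) and Tpm4 (-1.33 with days and -1.40 with the inhibitor). Dio2, Tuba1b, Tubb4b, Msn, Zyx and Tpm4 overlap other genes. Tubb5, Tuba1b, Tubb4b, Msn, Zyx, Fscn1 and Tpm4 were named after the values were seen.

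For 6 falling genes moved further the inhibitor change was the larger one, with the difference called. Ccnd1, the D-type cyclin that couples growth factor signals to S phase entry (ENSMUSG00000070348.5, chromosome 7, 144929931 to 144939925), is the most extreme of the 358 day-dependent genes in its inhibitor change. It stood at 90.3, 89.1 and 64.9 RPKM on day 2 and 14.1, 37.4 and 40.5 on day 14. With DMSO it was at 90.1, 58.4 and 66.3 RPKM, near day 2, and with the inhibitor at 1.75, 2.40 and 1.39, under every day 14 library. The changes were -1.50 ± 0.27 (adjusted p = 0.000603) and -4.66 ± 0.27 (adjusted p = 2.57e-09), a difference of -3.17 ± 0.38 (adjusted p = 1.96e-05). Ccnd1 overlaps another gene.

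Ldha, the lactate dehydrogenase subunit of glycolysis, had 34.4, 44.3 and 39.6 RPKM on day 2, 12.5, 21.5 and 19.9 on day 14, 26.1, 27.7 and 28.1 with DMSO and 4.62, 4.78 and 4.95 with the inhibitor. DMSO cells stood between the 2 days and inhibitor cells below both, and the difference was -1.17 ± 0.21 (adjusted p = 0.000913). The sterol enzyme gene Msmo1 had a difference of -1.06 ± 0.23 (adjusted p = 0.0048) and the ERK pathway inhibitor gene Spry4 of -1.40 ± 0.38 (adjusted p = 0.0188). The call for Spry4 was lost without DMSO replicate 1 (adjusted p = 0.0514), day 14 replicate 2 (0.0567) or day 14 replicate 3 (0.0574). It was also lost in a fit of the 12 libraries alone (0.102). The call for Tubb6, with a difference of -0.95 ± 0.28 (adjusted p = 0.0307), was lost without any 1 of 7 libraries (adjusted p 0.0502 to 0.0889), namely DMSO replicate 1, inhibitor replicates 2 and 3, day 2 replicates 1 and 3 and day 14 replicates 2 and 3. The fit of the 12 libraries alone lost the Tubb6 call as well (0.136). A further 7 of the 119 genes had a smaller inhibitor change, and 106 were not told apart. Counted with the 11 rising genes, 18 further genes had a smaller change, or 34 without day 14 replicate 3. Of the 119 genes 35 have predicted, clone, pseudogene or small RNA symbols. Spry4 overlaps another gene.

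Among the 81 falling genes that the inhibitor left, 54 have predicted, clone, pseudogene or small RNA symbols, and 37 had an inhibitor interval within -1 to 1. Cd24a, a surface glycoprotein gene of immature neural cells (ENSMUSG00000047139.9, chromosome 10, 43578284 to 43584265), stood at 47.4, 31.5 and 46.9 RPKM on day 2 and 14.1, 15.2 and 11.5 on day 14. Its 3 DMSO values were 34.9, 37.3 and 36.6 RPKM and its 3 inhibitor values 35.6, 36.4 and 35.2. The EGFR experiment thus stayed near day 2 in all 6 libraries. The inhibitor interval was -0.28 to 0.24 and the difference 1.52 ± 0.17 (adjusted p = 1.15e-05).

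Rlbp1, a retinaldehyde-binding protein gene, had 7.80, 8.72 and 6.17 RPKM on day 2, 2.49, 1.50 and 1.38 on day 14, 6.40, 7.19 and 7.02 with DMSO and 7.36, 7.51 and 6.73 with the inhibitor, and a difference of 1.69 ± 0.25 (adjusted p = 0.000201). Its DMSO and inhibitor libraries overlapped each other and were above all day 14 libraries. Trp53i11 (-1.28 with days and 0.16 with the inhibitor) and the G protein regulator gene Rgs16 (-1.55 with days and 0.15 with the inhibitor) had differences of 1.44 ± 0.21 (adjusted p = 0.000119) and 1.70 ± 0.39 (adjusted p = 0.00677), the second not called in a fit of the 12 libraries alone (adjusted p = 0.0603). The G protein subunit gene Gng3 (-2.29 with days and -0.43 with the inhibitor) and Limd2 (-1.31 with days and -0.32 with the inhibitor) each gained an inhibitor call when libraries were weighted, and Gng3 also without inhibitor replicate 2 (adjusted p = 0.0263) and Limd2 without DMSO replicate 1 (0.029). The AP-1 genes Fosl1 (-1.04 with days and -0.54 with the inhibitor) and Fosl2 (-1.18 with days and -0.32 with the inhibitor) and the BMP target gene Id2 (-1.17 with days and 0.47 with the inhibitor) were left as well. Rgs16, Gng3, Limd2 and Fosl1 overlap other genes. Fosl1, Fosl2 and Id2 were named after the values were seen.

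The inhibitor reversed 15 falling genes. Insm1, a zinc finger factor gene of neuronal and endocrine progenitors (ENSMUSG00000068154.5, chromosome 2, 146221921 to 146225020), stood at 2.96, 3.79 and 4.62 RPKM on day 2, at 0.917, 0.327 and 1.23 on day 14, at 0.816, 1.69 and 1.26 with DMSO and at 20.6, 23.9 and 21.8 with the inhibitor. DMSO cells were close to day 14, and inhibitor cells were far above day 2. The changes were -1.41 ± 0.23 (adjusted p = 0.000331) and 3.37 ± 0.23 (adjusted p = 1.64e-08), a difference of 4.78 ± 0.33 (adjusted p = 6.42e-08). Cited2, a transcriptional coregulator gene, had 16.2, 13.5 and 8.28 RPKM on day 2, 5.42, 5.11 and 3.90 on day 14, 8.36, 5.98 and 6.19 with DMSO and 21, 23.7 and 20.2 with the inhibitor. Its inhibitor libraries lay above all 9 others, with a difference of 2.73 ± 0.41 (adjusted p = 0.000216).

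Gpr17, a receptor gene of oligodendrocyte precursors (-1.26 with days and 1.83 with the inhibitor), had a day call that was lost without day 2 replicate 1 (adjusted p = 0.0881) or day 14 replicate 3 (0.105). A fit of the 12 libraries alone also lost this call (0.0716). The microtubule gene Map1b changed by -2.25 ± 0.20 (adjusted p = 8.02e-07) with days, and its inhibitor change of 0.53 ± 0.20 (adjusted p = 0.0456) was lost without any 1 of 9 libraries (adjusted p 0.0512 to 0.126), all but DMSO replicate 1 and day 14 replicates 1 and 3. Its difference of 2.78 ± 0.29 (adjusted p = 4.77e-06) was called. Ptx3, a secreted pattern recognition protein (-1.24 with days and 0.78 with the inhibitor), the Wnt antagonist gene Sfrp1 (-1.22 with days and 1.07 with the inhibitor), the ephrin gene Efnb2 (-1.05 with days and 0.24 with the inhibitor) and the imprinted noncoding RNA H19 (-1.33 with days and 1.45 with the inhibitor) were reversed too. Gpr17, Map1b, Ptx3, Efnb2 and H19 overlap other genes. Sfrp1, Efnb2 and H19 were named after the values were seen.

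**Figure D3:**
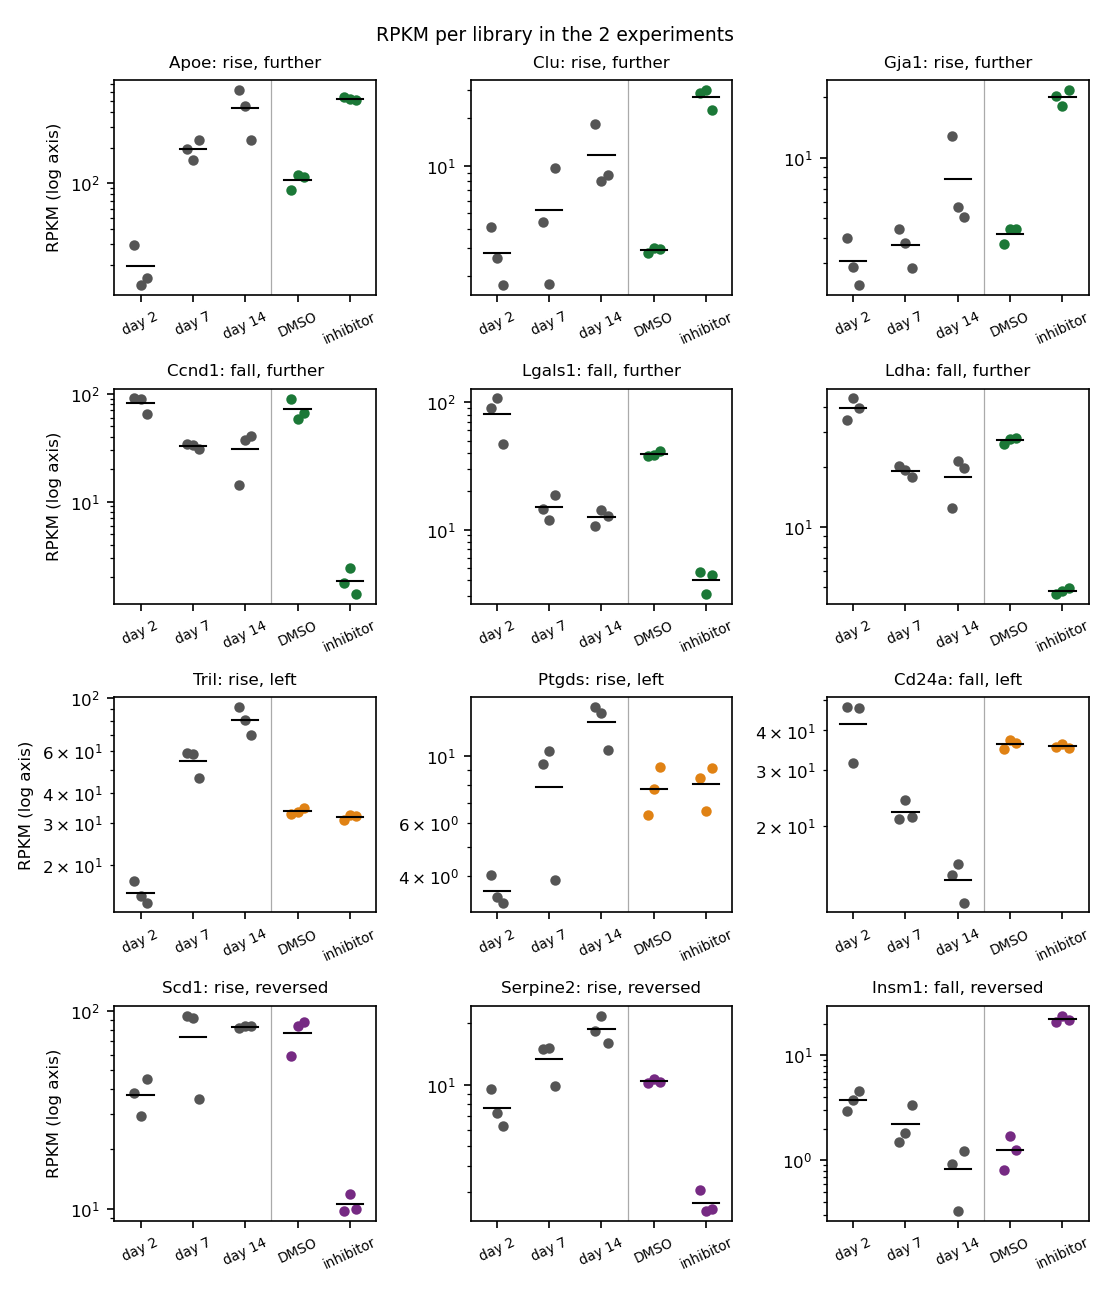
RPKM on log axes, with a different range in each panel, of 12 genes in each library on days 2, 7 and 14 and with DMSO or the EGFR inhibitor, where points are libraries and lines are means (n = 3). The inhibitor libraries of Clu, Ccnd1 and Ldha go past day 14, those of Tril and Cd24a stay with DMSO, and those of Scd1, Serpine2 and Insm1 lie on the far side of day 2.

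The genes of mature astrocytes divided among all 3 outcomes. Of 40 on the list 34 were tested, and 25 rose and 2 fell with days, while 18 rose and 6 fell with the inhibitor, with medians of 1.05 and 0.74 against -0.11 and -0.02 over all tested genes. Over all tested genes 23.2% had a day call (5.55% higher and 17.6% lower). Of the 19 that were day-dependent risers, 11 were moved further (Aqp4, Slc1a2, Gja1, Aldoc, Mlc1, Ndrg2, Cst3, Ntsr2, Pla2g7, Apoe and Clu), 6 were left (Tril, Kcnj10 and Hepacam among them) and 2 were reversed (Slc6a11 and Slc25a18). The difference of changes was called higher for 6 members and lower for 14. The list's summed level was 239 to 351 RPKM on day 2, 700.5 to 1467 on day 14, 496 to 607 with DMSO and 1616 to 1648 with the inhibitor. Such a sum weights genes by their level, and Apoe alone made up a large part of it, unlike the medians. Pla2g7 overlaps another gene.

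Gfap, Sox9 and Entpd2 rose with the inhibitor with no called change between the days. Gfap, the intermediate filament gene of astrocytes, stood at 3.27, 1.43 and 1.96 RPKM on day 2 and 9.73, 2.30 and 2.59 on day 14, and at 3.12, 3.56 and 3.75 with DMSO and 63.8, 71.5 and 62.8 with the inhibitor. Its day libraries overlapped, with day 14 replicate 1 the highest, and its day change was 0.68 ± 0.38 (adjusted p = 0.223). The difference of changes was 3.22 ± 0.54 (adjusted p = 0.000498). The transcription factor gene Sox9 (0.14 with days and 1.53 with the inhibitor) and the ectonucleotidase gene Entpd2 (0.01 with days and 2.26 with the inhibitor) had differences of 1.39 ± 0.23 (adjusted p = 0.00044) and 2.24 ± 0.17 (adjusted p = 1.19e-07). The glutamate transporter gene Slc1a3 differed from these, with a called day change of 0.54 ± 0.14 (adjusted p = 0.00774), which was lost without day 14 replicate 1 (0.0502) or day 2 replicate 2 (0.0544) and with weighted libraries (0.0565). Its inhibitor change of 0.13 ± 0.14 (adjusted p = 0.487) was not called, but was under quantile normalization (0.042). Its difference of -0.41 ± 0.19 (adjusted p = 0.192) was called only without day 2 replicate 1 (0.0151) among all alternatives. Gfap, Entpd2 and Slc1a3 overlap other genes.

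Genes that handle glutamate and GABA differed in how they moved in the 2 experiments. With days 10 of 14 tested genes rose and 2 fell, with a median of 0.64, and with the inhibitor 5 rose and 5 fell, with a median of 0.08. The difference was called lower for 6 members. Astrocyte genes that act on synapses gave 5 higher and 1 lower of 11 with days and 7 and 2 with the inhibitor, with 2 higher under days without day 14 replicate 1 or without day 2 replicate 2. The complement gene C4b (0.55 with days and 2.11 with the inhibitor) had a difference of 1.56 ± 0.27 (adjusted p = 0.000848) and the matricellular gene Sparc (-0.39 with days and 1.59 with the inhibitor) of 1.98 ± 0.48 (adjusted p = 0.0104), while the adhesion gene Nlgn3 (0.71 with days and 0.13 with the inhibitor) had one of -0.58 ± 0.12 (adjusted p = 0.00428). Nlgn3 overlaps another gene.

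Genes of mitosis were called lower with the inhibitor in full. The number called with days depended on the libraries and scaling of the fit. All 39 tested genes of the list fell with the inhibitor, with a median of -1.74, and 14 fell with days, with a median of -0.82. The day count rested on single libraries, with 1 called without day 14 replicate 1 or day 2 replicate 2, 3 without day 2 replicate 3 and 4 without day 14 replicate 2. It was 3 under each rescaling (median of ratios, quantile, and without mitochondrial genes) and 36 in a fit of the 12 libraries alone, where the difference of changes was called for 25. The list's summed level was 296 to 387 RPKM on day 2, 140 to 215 on day 14, 291 to 341 with DMSO and 51.9 to 56.6 with the inhibitor. The day 2 and day 14 sums thus did not overlap. Among libraries that only share the fit, the sums were 32.5 to 222 RPKM on day 7 and 88.2 to 342 with HBEGF. The part of that spread in the main counts was not tested. The difference of changes was called for 1 member, the kinetochore gene Spc25, with -1.33 ± 0.36 (adjusted p = 0.0186), and that call was lost without day 14 replicate 3 (0.0509). The proliferation marker Mki67 had 43.2, 46.7 and 72.8 RPKM on day 2, 24.0, 21.8 and 36.6 on day 14, 47.9, 53.7 and 58.2 with DMSO and 9.41, 8.52 and 8.24 with the inhibitor, and a difference of -1.53 ± 0.80 (adjusted p = 0.239), called in the fit of 12 libraries (0.0153). All inhibitor values lay below those of day 14, and DMSO values within the day 2 range. In limma 0 of 31 DNA replication genes had a called difference (6 at an unadjusted p below 0.05), where 30 fell with days (18 without day 14 replicate 1) and 31 with the inhibitor. Their medians were -0.76 and -1.04. Voom on recovered reads called the difference for 5 of them, and limma for 6 with weighted libraries or without day 14 replicate 1. The helicase subunit genes Mcm2 (-1.05 with days and -1.34 with the inhibitor), Mcm3 (-1.18 with days and -1.71 with the inhibitor) and Mcm6 (-1.06 with days and -1.22 with the inhibitor) were day-dependent and moved further. Mki67 overlaps another gene. Mcm2, Mcm3 and Mcm6 were named after the values were seen.

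Cdk1, the kinase that starts mitosis, was a falling gene moved further. Its day change was only just past the limit of 1 in log2, so its class rests on that limit. Day calls of mitosis genes also depended on the libraries and scaling, as given above. Cdk1 stood at 6.83, 10.2 and 8.05 RPKM on day 2 and at 2.64, 3.43 and 4.96 on day 14. Its values were 8.30, 8.55 and 7.93 RPKM with DMSO and 1.13, 1.0 and 0.799 with the inhibitor. All inhibitor libraries lay below the other 3 groups. The difference of its changes, -1.21 ± 0.48 (adjusted p = 0.108), was not called. Cell cycle promoters are known for CCAAT boxes, the sites of NF-Y, and for the CHR element. The 250 bases before its start are shown as an example of such a promoter, from RefSeq (GRCm38.p6, chr10:69352913-69353162, minus strand), with matches to CCAAT on either strand and to the CHR core TTTGAA in capitals.
Cdk1: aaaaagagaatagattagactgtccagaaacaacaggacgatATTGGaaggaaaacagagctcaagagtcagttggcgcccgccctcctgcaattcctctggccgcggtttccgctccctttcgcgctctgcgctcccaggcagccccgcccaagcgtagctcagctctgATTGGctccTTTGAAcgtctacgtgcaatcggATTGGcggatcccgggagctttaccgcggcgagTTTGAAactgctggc
The window holds 3 CCAAT matches, all on the opposite strand, and 2 CHR matches. Among the 33 of 39 mitosis genes with an entry, 25 (75.8%) held CCAAT on either strand and 11 (33.3%) held TTTGAA or TTCGAA on either strand. These shares were 34.5% and 17.4% over all 27025 genes with a promoter of this length in RefSeq. A high CCAAT share was not particular to the mitosis list. CCAAT was held by 20 of 22 endoplasmic reticulum stress genes with an entry (90.9%) and 13 of 20 radial glia and immature cell genes (65%). Among mature astrocyte genes 11 of 28 held it (39.3%). Of the 119 falling genes moved further only 66 had an entry, too few for a share. The 2 motifs do not overlap each other, and a match is a description and not a site of binding. Cdk1 was named after the values were seen.

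For most genes of cholesterol synthesis the fall with the inhibitor was larger than that with days. All 24 tested cholesterol synthesis genes fell with the inhibitor, with a median of -1.57, and 17 fell with days (10 without day 14 replicate 1 and 10 under median-of-ratios scaling), with a median of -0.63. The difference was called lower for 17 of 24, against 4.87% of all genes, and for 11 without day 14 replicate 3. The summed level was 191 to 201 RPKM on day 2, 109 to 144 on day 14, 177 to 231 with DMSO and 32.8 to 37.9 with the inhibitor, so that neither pair of groups overlapped. Hmgcs1, which makes HMG-CoA for sterols, had 33.6, 31.9 and 33.5 RPKM on day 2, 21.9, 24.6 and 23.5 on day 14, 33.9, 43.8 and 42.3 with DMSO and 5.75, 5.92 and 4.34 with the inhibitor. The inhibitor libraries lay below every day 14 library. Its day change was -0.49 ± 0.19 (adjusted p = 0.0688), called in a fit of the 12 libraries alone (0.0244), and its difference -2.21 ± 0.26 (adjusted p = 1.9e-05). The demethylase gene Cyp51 (-0.59 with days and -2.70 with the inhibitor) had a difference of -2.12 ± 0.28 (adjusted p = 5.58e-05), and the sterol sensor gene Insig1 (0.04 with days and -2.87 with the inhibitor) one of -2.91 ± 0.45 (adjusted p = 0.000257). Hmgcs1 and Cyp51 overlap other genes.

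Sterol genes are known targets of SREBP factors, which bind the sterol regulatory element. The 250 bases before the start of Hmgcs1 (RefSeq, GRCm38.p6, chr13:119690101-119690350, plus strand) are shown with the match to the element TCACNCCAC, searched on both strands, in capitals.
Hmgcs1: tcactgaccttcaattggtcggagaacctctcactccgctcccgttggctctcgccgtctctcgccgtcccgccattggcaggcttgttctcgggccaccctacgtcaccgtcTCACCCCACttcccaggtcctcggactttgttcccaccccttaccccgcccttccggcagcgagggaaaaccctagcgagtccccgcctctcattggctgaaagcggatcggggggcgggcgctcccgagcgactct
This window holds 1 match, and 1.04% of all promoters of this length in the table hold one. Only 17 of the 24 tested genes have an entry, too few for a share of the list. Of these 17, Hmgcs1 alone held a match.

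Among genes that ERK induces, the inhibitor change lay below the day change with the difference called for 10 of 19 members, not all of which fell with days. Of 19 tested ERK feedback and output genes, 17 fell and 1 rose with the inhibitor (median -1.02), and 11 fell and 1 rose with days (median -0.35), or 8 and 3 under median-of-ratios scaling. The difference was called lower for 10 and higher for 2. The ERK phosphatase gene Dusp6 stood at 27.9, 26.7 and 18.9 RPKM on day 2, 19.4, 61.0 and 56.7 on day 14, 35.5, 18.7 and 22.4 with DMSO and 1.29, 1.64 and 1.79 with the inhibitor. The day libraries overlapped, with day 14 replicates 2 and 3 the highest of all, and the inhibitor libraries were far below the rest. Its day change was 0.73 ± 0.31 (adjusted p = 0.0989), its inhibitor change -3.32 ± 0.31 (adjusted p = 3.65e-07) and the difference -4.05 ± 0.44 (adjusted p = 7.52e-06). The day change was called higher without day 14 replicate 1 (1.25, adjusted p = 0.000962) and, at adjusted p of 0.0225 to 0.0472, under median-of-ratios scaling, quantile normalization, voom and weighted libraries. The ETS factor gene Etv5 (0.15 with days and -1.48 with the inhibitor) had a difference of -1.64 ± 0.14 (adjusted p = 9.45e-07). Of the members that were day-dependent, 5 were moved further, among them Dusp4 (-1.39 with days and -0.93 with the inhibitor) and Phlda1 (-1.97 with days and -0.61 with the inhibitor), and 1 was left. The receptor gene Egfr itself changed by 0.53 ± 0.16 (adjusted p = 0.0208) with days, a call lost without day 14 replicate 1 or day 2 replicate 1 or 2 (adjusted p 0.0864 to 0.127), and by -0.74 ± 0.16 (adjusted p = 0.00111) with the inhibitor. The ligand gene Hbegf had a day change of -1.14 ± 0.47 (adjusted p = 0.092), an inhibitor change of -1.75 ± 0.47 (adjusted p = 0.00636) and a difference of -0.61 ± 0.67 (adjusted p = 0.617). Its day change was called without DMSO replicate 1 (adjusted p = 0.0332) or day 2 replicate 3 (0.0361). Phlda1 and Egfr overlap other genes. Dusp4 and Phlda1 were named after the values were seen.

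Genes of the respiratory chain had many inhibitor calls and few day calls. Of 40 tested nuclear genes of oxidative phosphorylation 22 fell with the inhibitor, while 1 rose and 1 fell with days (3 rose without day 14 replicate 3). The medians were -0.36 and 0.08, and the difference was called lower for 12 (16 to 20 under the 3 rescalings and 24 with voom, settings under which 4 to 12 genes rose with days). The ATP synthase gene Atp5b (-0.23 with days and -1.25 with the inhibitor) had a difference of -1.03 ± 0.15 (adjusted p = 0.000195). Ribosomal protein genes had medians of -0.39 with the inhibitor and -0.31 with days and 0 called differences of 40 in limma (1 at an unadjusted p below 0.05), but other settings called it lower for Rpl4 or Rpl3. These were voom (both), median-of-ratios scaling, scaling without mitochondrial genes and weighted libraries (Rpl4), quantile normalization (Rpl3), and leaving out DMSO replicate 1 (Rpl4) or day 2 replicate 2 (both). Of the 40 genes, 18 fell with the inhibitor and 10 with days, but 0 with days under median-of-ratios scaling or without day 2 replicate 2, 1 without day 14 replicate 3 and 2 without day 14 replicate 1. Endoplasmic reticulum stress genes gave 13 lower and 1 higher of 24 with the inhibitor and 10 and 0 with days, or 7 and 3 with days under median-of-ratios scaling. Their difference of changes was called lower for 4 and higher for 1, against 4.87% and 7.99% of all tested genes. Atp5b, Rpl4 and Rpl3 overlap other genes.

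Motile cilium genes were higher with the inhibitor than with DMSO, with few day calls. Only 15 of the 50 on the list were tested, and 35 were below 1 RPKM in all 12 libraries. Of the 15, 14 rose with the inhibitor, 1 rose and 1 fell with days, and the difference was called higher for 12. Genes that pass a filter on low values only through the inhibitor group had to differ, so these counts describe only those that passed. The microtubule-stabilising gene Tppp3 (-0.48 with days and 1.49 with the inhibitor) and the radial spoke gene Rsph4a (-0.11 with days and 1.24 with the inhibitor) had differences of 1.97 ± 0.17 (adjusted p = 8.14e-07) and 1.35 ± 0.16 (adjusted p = 1.54e-05). Foxj1, the ciliary transcription factor gene, changed by 0.60 ± 0.20 (adjusted p = 0.035) with days, a call lost without day 14 replicate 1 or 3 or day 2 replicate 3 (adjusted p 0.0838 to 0.179), and by 2.34 ± 0.20 (adjusted p = 1.54e-07) with the inhibitor.

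Radial glia and immature cell genes went both ways in each experiment, with 13 higher and 7 lower of 24 with the inhibitor and 5 and 6 with days (3 higher without day 14 replicate 1 or 2 or day 2 replicate 3). The fatty acid binding gene Fabp7 had 955, 877 and 829 RPKM on day 2, 594, 799 and 735 on day 14, 1011, 1202 and 1068 with DMSO and 349, 365 and 362 with the inhibitor. The inhibitor libraries were the lowest, and DMSO lay above both days. Its day change was -0.33 ± 0.14 (adjusted p = 0.1) and its difference -1.27 ± 0.20 (adjusted p = 0.000275), a call lost under quantile normalization (adjusted p = 0.45). Igfbp5 (0.31 with days and 2.54 with the inhibitor), Pax6 (-0.27 with days and 1.0 with the inhibitor) and the matrix gene Fbln2 (0.09 with days and -2.84 with the inhibitor) had differences of 2.23 ± 0.23 (adjusted p = 4.55e-06), 1.26 ± 0.11 (adjusted p = 5.89e-07) and -2.93 ± 0.32 (adjusted p = 7.75e-06). Of 16 reactive astrocyte genes 8 rose and 3 fell with the inhibitor (1 lower without inhibitor replicate 1) and 1 and 7 with days, and the difference was called higher for 10 and lower for 2 (6 higher without day 14 replicate 3). Matrix and adhesion genes gave 6 higher and 9 lower of 16 with the inhibitor and 3 and 6 with days (1 higher without day 14 replicate 1, day 2 replicate 2 or day 2 replicate 3). BMP and Notch target genes gave 4 higher and 3 lower of 10 with the inhibitor (2 higher without DMSO replicate 1 or any 1 inhibitor library) and 2 and 2 with days, with Id4 (0.74 with days and 2.80 with the inhibitor) and Hes1 (0.23 with days and -0.93 with the inhibitor) on opposite sides. Their differences were 2.06 ± 0.38 (adjusted p = 0.00111) and -1.15 ± 0.17 (adjusted p = 0.000214). Pax6 and Id4 overlap other genes.

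**Figure D4:**
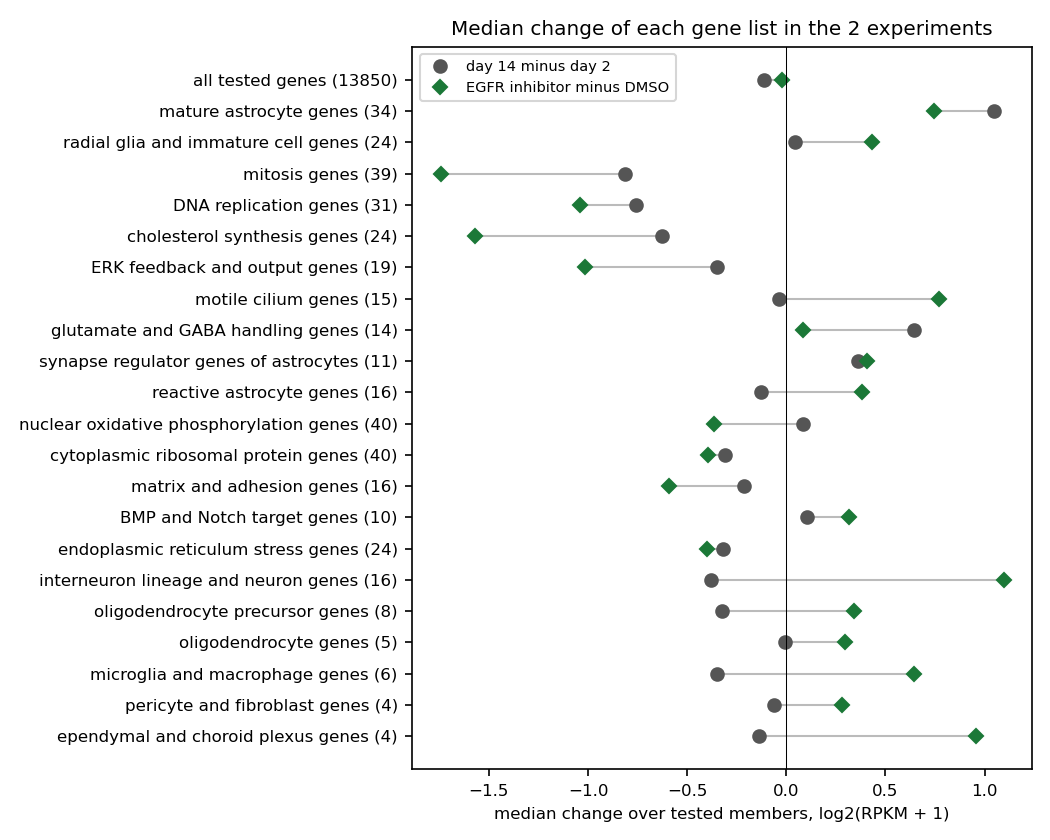
For each gene list (tested members in brackets) the grey circle is the median log2(RPKM + 1) change from day 2 to day 14 and the green diamond the median change with the EGFR inhibitor. The pairs lie close for ribosomal protein and endoplasmic reticulum stress genes and apart for mitosis, cholesterol synthesis, cilium and interneuron genes.

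Markers of other cells moved with the inhibitor beside these groups. Of 25 interneuron lineage and neuron genes 16 were tested, and 13 rose and 1 fell with the inhibitor, 1 rose and 5 fell with days, and the difference was called higher for 14. Their summed level was 121 to 180 RPKM on day 2, 92.9 to 123 on day 14, 132 to 153 with DMSO and 246 to 253 with the inhibitor, while the defining neuron genes Rbfox3, Snap25 and Syt1 and the GABA synthesis genes Gad1 and Gad2 were below 1 RPKM in all 12 libraries. Microglia genes gave 5 higher of 6 tested with the inhibitor (3 without DMSO or inhibitor replicate 2) and 2 lower with days, with sums of 4.33 to 7.22, 1.70 to 2.43, 2.45 to 2.89 and 7.96 to 12.4 RPKM in the same order. Of the 24 microglia genes Tmem119 was listed at 0 and 18 others were below 1 RPKM throughout, among them Cx3cr1, P2ry12 and Csf1r. Of the 10 ependymal and choroid plexus genes 6 were below 1 RPKM in all 12 libraries, and the 4 tested were higher with the inhibitor. As for the cilium genes, microglia and ependymal genes that pass the low-value filter only through the group where they are high had to differ, so these counts describe only those that passed. The 10 genes, with Ttr below 1 RPKM, had sums of 2.68 to 4.89, 5.05 to 6.42, 2.97 to 3.44 and 18.0 to 24.1 RPKM.

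Oligodendrocyte precursor genes had sums of 323 to 406, 342 to 421, 324 to 420 and 118 to 141 RPKM, with 2 higher and 3 lower of 8 tested with the inhibitor and 2 lower with days. Unlike the sum, the median change of the 8 was 0.34 with the inhibitor and -0.33 with days. The difference was called higher for 5 of them and lower for 2, Olig1 and Olig2. For at least 1 of the 5 the call was lost without any 1 of 9 libraries (adjusted p 0.0531 to 0.0935) and under quantile normalization (0.0728). Olig1 (0.31 with days and -2.01 with the inhibitor), a factor gene of oligodendrocyte and astrocyte lineages, and Olig2 (-0.19 with days and -1.30 with the inhibitor) had differences of -2.32 ± 0.20 (adjusted p = 9.45e-07) and -1.10 ± 0.19 (adjusted p = 0.000757). Oligodendrocyte genes summed to 2.67 to 4.56, 2.97 to 7.58, 3.71 to 5.62 and 7.13 to 7.57 RPKM, with 1 higher of 5 with the inhibitor. Pericyte and fibroblast genes summed to 3.48 to 5.83, 6.04 to 10.2, 4.95 to 6.59 and 6.55 to 8.53 RPKM, with 1 higher and 1 lower of 4. All 12 endothelial genes were below 1 RPKM in every library, with sums of at most 0.346 RPKM. The part of such cells in the results was not tested. Olig1 overlaps another gene.

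The rule on size has an edge. Just inside it stood Hist1h2bc (day change 1.001, left), Gm8099 (-1.003, moved further) and Eme1 (-1.005, moved further), and just outside Ccnd2 (-0.997), Pgpep1 (0.997) and Gm11578 (0.995). Of the 3 outside, Ccnd2 fell and Pgpep1 rose with the inhibitor as well (-1.22 and 1.14).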

How the data were processed

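RNA was sequenced from 25 libraries of immunopanned mouse astrocytes, made with miRNeasy, Ovation V2 and NEBNext Ultra kits per the labels' protocols. The authors deposited 1 table of RPKM values, and the submitters' processing notes name STAR, HTSeq, edgeR, limma and the build GRCm38 without role or version. The summed products of RPKM and whole gene span were 1000823 to 1004357, so the length used was the span with introns, and levels between genes compare per kilobase of span. Of the 54429 symbols 53824 matched GENCODE M21, and 26 symbols had been turned into dates. Low values were whole multiples of 1 read in 99.0% to 99.2% of cases, which gave the reads per library. These recovered reads were used in voom as an alternative, which called 2896 genes higher and 2656 lower with the inhibitor.

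Genes with at least 1 RPKM in at least 2 libraries were fitted with limma 3.58.1 in R 4.3.3 on log2(RPKM + 1), with 9 group means, trended and robust empirical Bayes, 16 residual degrees of freedom and Benjamini-Hochberg adjustment over 13850 genes, two-sided. The fit used all 25 libraries, so that the groups share 1 estimate of the spread. The highest correlation between any 2 libraries was 0.971, and none was merged. The script was tested on simulated data with 200 changed genes of 13850, where for the difference of changes 60% of 2-fold and 82% of 4-fold changes were recovered with 4.05% false calls. For the inhibitor change 6.08% and for the day change 8.81% of calls were false.

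The members and gene lists were chosen with earlier results of these data known. Named genes were, per direction and class, the 6 with the largest changes in both comparisons (for left genes, in the day change with an inhibitor interval within -1 to 1) among named genes with at least 5 RPKM and no overlap of groups. Added were up to 4 larger ones, 3 per list by the p of the difference of changes, and a fixed set (Gfap, Aqp4, Mki67, Ccnd1, Egfr, Hbegf, Fabp7, Sox9, Slc1a2, Slc1a3, Gja1, Aldoc and Hmgcs1). Alternatives were another pseudocount, filter, scaling, threshold, size minimum, library set, weighting, block and test, and leaving out each library. The authors' RPKM of day 7 libraries served to place the time of the day change. Values of 2 named genes are not reported here.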

Additional observations from a re-analysis of the deposited data

How the results depend on the processing

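Counts of genes called (inhibitor, day or difference, higher or lower) and of day-dependent genes in each class were recomputed under each alternative, and those that moved by over 1.5 times follow. Beyond the smaller samples or gene sets of an alternative, the cause was not tested. With a pseudocount of 0.1 the counts were rising 326, rising further 188, rising left 106, rising reversed 32, falling 526, falling further 285, falling left 196, falling reversed 45, further and larger 24, further and smaller 30 and left and told apart 118. With no filter the counts were inhibitor higher 4129 and difference higher 2005. With a filter of 5 RPKM the counts were inhibitor higher 670, inhibitor lower 1399, day higher 345, day lower 922, difference higher 292, difference lower 372, rising left 30, falling left 36, falling reversed 9, further and smaller 11 and left and told apart 29. With median-of-ratios scaling the counts were day higher 1202, day lower 1140, falling 111, falling further 52 and falling left 45. With quantile normalization the counts were day lower 1204, falling 120, falling further 61 and falling left 49. With array weights the counts were rising left 29 and falling left 53. At an adjusted p of 0.01 the counts were day higher 449, day lower 1418, difference higher 525, difference lower 355, falling left 52, falling reversed 8, further and larger 3 and further and smaller 7. With voom on recovered reads the counts were day higher 1341, day lower 1350, difference lower 1099, rising 515, rising further 341, rising left 132, rising reversed 42, falling 355, falling further 186, falling left 123, falling reversed 46, further and larger 49, further and smaller 45 and left and told apart 121. With no minimum day change the counts were rising 769, rising further 426, rising left 262, rising reversed 81, falling 2439, falling further 1548, falling left 790, falling reversed 101, further and larger 136, further and smaller 30 and left and told apart 317. With a minimum day change of 2 the counts were rising 13, rising further 8, rising left 4, rising reversed 1, falling 23, falling further 10, falling left 12, falling reversed 1, further and larger 0, further and smaller 4 and left and told apart 5. With scaling without mitochondrial genes (chosen after seeing the data) the counts were day lower 1382, rising further 124 and rising reversed 23. Leaving out each of the 12 libraries in turn, the lowest and highest counts were day higher 490 to 856, day lower 1590 to 2413, falling 143 to 270, falling further 66 to 172, falling left 59 to 109, falling reversed 11 to 18, rising 108 to 188, rising further 48 to 112, rising left 37 to 61, rising reversed 13 to 19, difference higher 786 to 1235, difference lower 506 to 843, inhibitor higher 1912 to 2283, inhibitor lower 2653 to 3141, further and larger 7 to 14, further and smaller 12 to 34 and left and told apart 48 to 66. The lowest counts of day calls and of falling genes came without day 14 replicate 1 and the highest counts of further genes without day 14 replicate 3. The share of rising genes moved further ranged from 44.4% to 66.2% over all alternatives and that of falling genes from 43.5% to 69.0%. Of 7386 values of the named genes under alternatives 7060 kept their direction and their side of the threshold, 216 lost a call, 110 gained one and 0 reversed.

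Same-numbered libraries deviated from their group means with low correlations (r of -0.003, 0.006 and 0 in the EGFR experiment, and 0.006, 0.118 and 0.063 for days 2 and 14), and not every library correlated best with its own number, so the samples were taken to share only a number. With the replicate number as a block, 79 of 137 rising genes and 111 of 205 falling genes were moved further, the cholesterol synthesis genes with a called difference were 11, the mitosis genes with a day call were 3, the day call of Scd1 was lost (adjusted p = 0.0535) and the difference of Aqp4 was called (adjusted p = 0.00612).

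Reads per library, 4326298 to 9693546, limit low genes, and the scale understates their changes.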

Other observations

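Withdrawal of HBEGF, a ligand of EGFR, from the preparation day on gave a further set of values for the day-dependent genes, from libraries outside the comparison (n = 2 each). Over all tested genes 10.0% were higher and 22.5% lower without HBEGF in limma. Of the 78 rising genes moved further by the inhibitor, 53 (67.9%) rose and 3 fell without HBEGF, and of the 119 falling genes moved further 84 (70.6%) fell and 2 rose. Of the 50 left rising genes 9 rose and 5 fell without HBEGF, and of the 81 left falling genes 9 fell and 5 rose. Of the reversed genes, 9 of the 15 rising genes fell and 0 rose without HBEGF, and 6 of the 15 falling genes rose and 1 fell.

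Apoe stood at 139.6 and 86.4 RPKM with HBEGF and 357 and 425 without it, a change of 1.82 ± 0.36 (adjusted p = 0.000864). Ccnd1 stood at 50.2 and 59.8 RPKM with HBEGF and 9.44 and 8.35 without it, a change of -2.50 ± 0.33 (adjusted p = 1.88e-05). Scd1 stood at 23.8 and 64.6 RPKM with HBEGF and 11.3 and 7.57 without it, a change of -1.97 ± 0.40 (adjusted p = 0.000982), and Insm1 at 3.57 and 2.22 RPKM with HBEGF and 17.4 and 20.1 without it, a change of 2.36 ± 0.29 (adjusted p = 8.84e-06). For Tril the change without HBEGF was -1.36 ± 0.14 (adjusted p = 1.3e-06), and for Cd24a it was -0.68 ± 0.15 (adjusted p = 0.00179). In the P53 inhibitor libraries 25 of 13850 genes (0.181%) were called against their own DMSO control. Of the day-dependent genes 3 were among them, all rising genes that were lower with the P53 inhibitor.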
